A study of Mus musculus with 6 samples.

Results

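The genes described here are 7 genes of the complement system and its control, C3, C4b, Cfb, Cfi, Serping1, Cd55 and Cd59a, together with Pigr, the gene of the receptor that carries IgA across epithelium. They were found by matching the Ensembl identifiers of the count table to the mouse gene symbols, and all 8 matched, out of 55414 rows. The libraries came from Paneth cells (PCs), the granule-rich secretory cells that sit at the bottom of the crypts, sorted from the small intestine 15 h after an injection. There were 3 libraries after phosphate-buffered saline (PBS) and 3 after tumour necrosis factor (TNF). All 6 came from C57BL/6J mice of the IFNAR1 KO genotype, so the PBS controls carried the knockout of the type I interferon receptor gene Ifnar1 as well. Whether each replicate was a separate mouse or a pool is not stated, and where replicates shared mice the p-values would measure technical spread. Libraries from mice with intact Ifnar1 were not analysed here, and the labels do not state age, sex, the sorting gate or the dose of TNF. Where 3 values follow a group, they are in the order of its replicate numbers.

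Total counts ranged from 12747484 to 17039511 per library, so that a count of 0 still allows a level of up to 0.176 to 0.235 CPM (counts scaled to library totals). Ifnar1 was counted in all 6 libraries, at 5.18 to 12.7 CPM, and with no wild-type library this level checks nothing about the knockout. Over the 13026 tested genes, TNF replicate 1 correlated better with the PBS libraries (Pearson r of log2 CPM 0.951 to 0.955) than with TNF replicates 2 and 3 (0.898 and 0.903), which correlated with each other at 0.966. These correlations are across genes and are a description of the libraries. TNF replicate 1 was kept as labelled, and the fold changes of the 6 tested genes are also given without it. That fit leaves out the TNF library most like PBS, as judged from these same data. This favours larger differences between the groups, so its p-values are likely too small and are given as a description. The 12 PC markers, among them Lyz1 and Defa24, summed to 252909 to 553674 CPM. Y-linked counts were 846 in PBS replicate 3, 669 in TNF replicate 3 and at most 2 in the other 4 libraries, so both groups held libraries with and without Y-linked reads. Replicate 3 of each group was therefore not a repeat of the same material as replicates 1 and 2. Whether replicates 1 and 2 shared mice cannot be told.

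Complement is a cascade of plasma proteins that tags and lyses microbes. It is started by antibody, by sugar patterns or by spontaneous turnover of C3, and every route meets at the C3 convertases, the enzymes that split C3. C4b encodes a component of the classical and lectin convertase and Cfb the protease of the alternative one, whereas Cfi, Serping1, Cd55 and Cd59a encode inhibitors that act at successive steps of the cascade. Pigr binds polymeric IgA made by plasma cells under the epithelium, carries it through the cell and is released with it into the gut lumen as secretory IgA. Crypt epithelium is a known site of Pigr expression, and C3 and Cfb are known to be inducible in epithelial cells by inflammatory cytokines.

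Per length, Pigr and Cfi were expressed well above the other 6 genes, and the genes differed in how they stood 15 h after TNF. C3 was higher in 2 of the 3 TNF libraries than in any other library, Cfi was lower in the same libraries, and Pigr, Cd55, Cfb and C4b overlapped between groups. With edgeR's quasi-likelihood test over all 6 libraries, 0 of the 6 genes that passed the low-count filter had an adjusted p under 0.05 (termed 5% below), where 0% of all 13026 tested genes did. At an unadjusted p under 0.05 there was 1 of the 6 genes (C3), against 1596 (12.3%) of all tested genes. Without TNF replicate 1, 2 of the 6 genes passed 5%, C3 higher and Cfi lower in TNF, where 14.5% of 13660 genes passed, 9.1% as higher and 5.4% as lower. DESeq2 over all 6 libraries passed 1 gene (C3, higher), where 1.71% of genes with an adjusted p passed and 1.46% did so as higher. With limma-voom and sample weights, which give a deviating library less say, the same 2 genes passed (C3 higher, Cfi lower), where 11.5% of genes passed, 7.06% as higher and 4.47% as lower. Without the low-count filter C3 passed, where 2.94% of genes did and 2.1% did so as higher. Of the 6 genes, 0 had groups that did not overlap, where 9.07% of tested genes lay higher and 7.82% lower in TNF without overlap. In sorted bulk samples, a lower value can come from fewer cells of a type or from less RNA per cell, and these cannot be told apart.

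**Figure D1:**
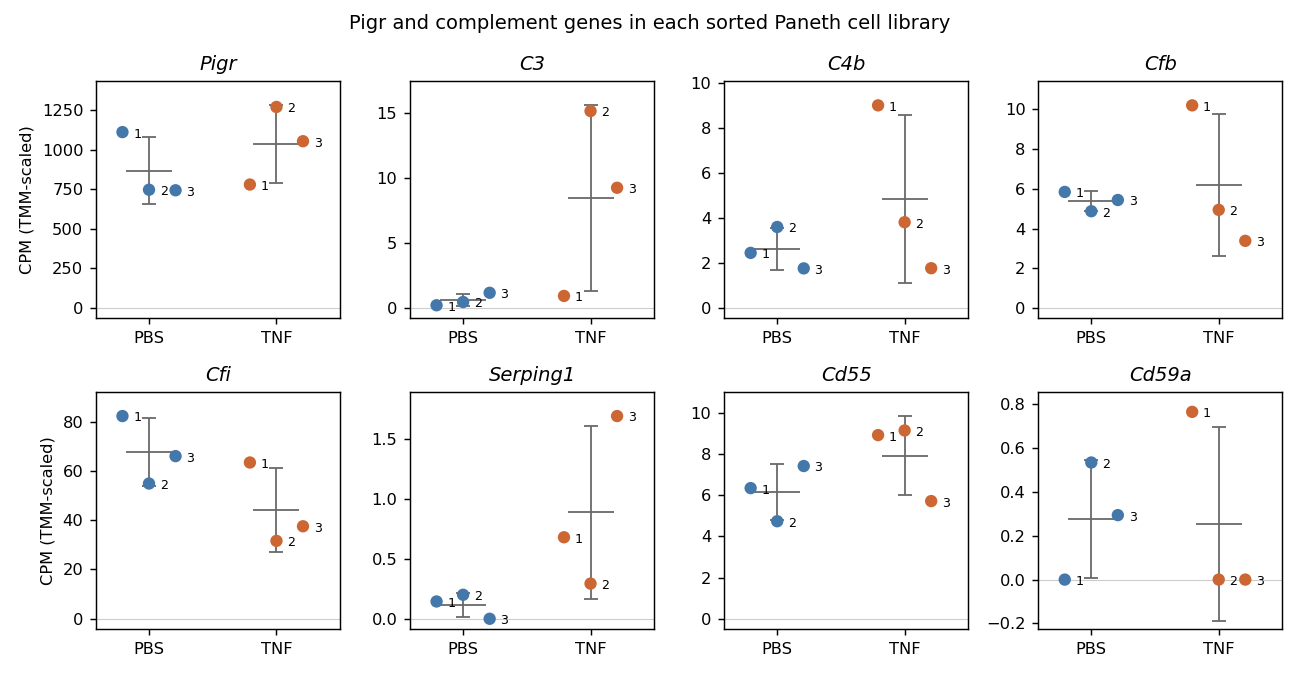
Level of each gene in every library, in CPM on TMM-scaled library sizes (vertical axes, linear), for 3 PBS (blue) and 3 TNF (orange) libraries. Points carry their replicate number, and grey bars give the group mean ± SD (n = 3). TNF replicates 2 and 3 lie at 15.2 and 9.26 CPM of C3, above the other 4 libraries, whereas the highest C4b and Cfb values are those of TNF replicate 1.

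Pigr (ENSMUSG00000026417, chromosome 1, 130754397 to 130779986, plus strand of GRCm39, as for all positions below) gave 15395, 11190 and 10118 reads after PBS and 9174, 25946 and 13076 reads after TNF. Scaled with TMM, the PBS libraries measured 1111, 747 and 743 CPM and the TNF libraries 780, 1269 and 1053 CPM. The highest value was that of TNF replicate 2, but PBS replicate 1 lay above TNF replicates 1 and 3, so that the groups overlapped. PBS averaged 867 ± 211 CPM (SD, n = 3, as for all means below) and TNF 1034 ± 245 CPM, and the fitted log2 fold change was 0.25 (SE 0.31, adjusted p 0.777 by edgeR). Without TNF replicate 1 it was 0.44 (SE 0.27, adjusted p 0.329). Across the alternatives it stayed between 0.05 and 0.48, with an adjusted p from 0.191 to 0.979. Pigr took 0.0621% (TNF replicate 1) to 0.152% (TNF replicate 2) of all counts and 89.2% to 95.1% of the counts of the 8 genes.

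C3 (ENSMUSG00000024164, chromosome 17, 57510964 to 57535155, minus strand), the protein at which all complement routes meet, was close to the detection limit in PBS. It was counted 3, 7 and 16 times after PBS and 11, 310 and 115 times after TNF. The PBS libraries thus measured 0.216, 0.467 and 1.18 CPM and the TNF libraries 0.935, 15.2 and 9.26 CPM. TNF replicates 2 and 3 stood far above the rest, whereas TNF replicate 1 lay within the PBS range. The averages of 0.620 ± 0.497 CPM for PBS and 8.45 ± 7.15 CPM for TNF went with a fitted log2 fold change of 3.77 (SE 0.95, edgeR unadjusted p 0.00300, adjusted p 0.270). Without TNF replicate 1, C3 passed 5% with a log2 fold change of 4.31 (SE 0.55, adjusted p 5.23e-04). It also passed with DESeq2 over all 6 libraries (3.76, SE 0.78, adjusted p 5.91e-04). Across the alternatives the log2 fold change ran from 2.99 to 4.54, with an adjusted p from 4.43e-08 to 0.897. C3 had the largest fold change of the 6 tested genes in size, both over all 6 libraries and without TNF replicate 1.

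**Figure D2:**
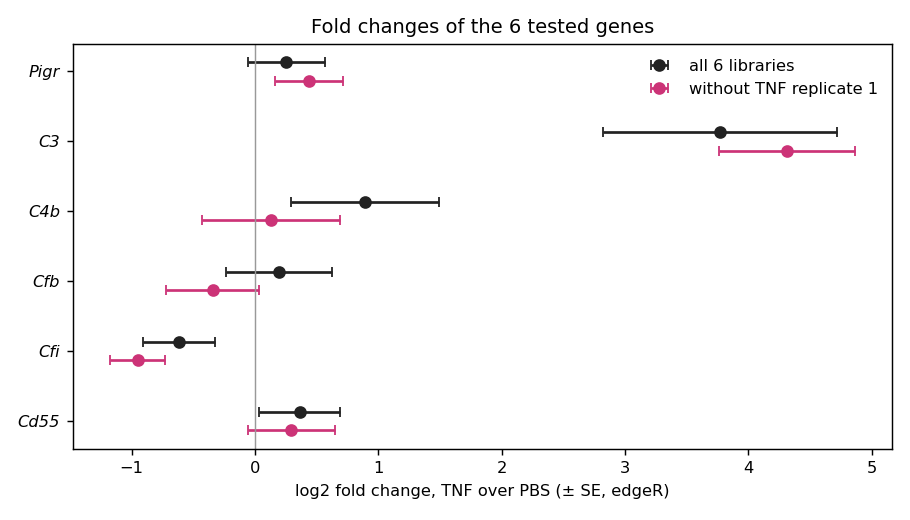
Log2 fold change of TNF over PBS for the 6 tested genes (horizontal axis, ± SE from edgeR), over all 6 libraries (black) and without TNF replicate 1 (magenta). C3 lies at 3.77 and 4.31, Cfi at -0.62 and -0.95, and the bars of Cfb and C4b move towards lower values when TNF replicate 1 is left out.

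Cfb and C4b, which encode parts of the enzymes that split C3, had other values. Cfb (ENSMUSG00000090231, chromosome 17, 35074852 to 35081559, minus strand), the protease of the alternative convertase, measured 5.84, 4.87 and 5.44 CPM after PBS and 10.2, 4.94 and 3.38 CPM after TNF. In CPM TNF replicate 1 was the highest library and TNF replicate 3 the lowest. PBS averaged 5.38 ± 0.488 CPM and TNF 6.17 ± 3.57 CPM, with a log2 fold change of 0.19 (SE 0.43, adjusted p 0.882 by edgeR) that turned to -0.34 (SE 0.38, adjusted p 0.606) without TNF replicate 1. The Cfb count has a limit of its own. Of 3420 exonic bases of Cfb, 2246 (65.7%) are shared on the same strand with the gene model Gm20547, which runs on into C2 and was listed at 0 in all 6 libraries, and 49.8% are shared with Nelfe on the opposite strand. The sources used here state neither how reads in shared exons were counted nor whether strand was used, so the level of Cfb is uncertain.

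C4b (ENSMUSG00000073418, chromosome 17, 34947354 to 34962912, minus strand) encodes complement component 4, which is split to form part of the classical convertase. The PBS libraries measured 2.45, 3.60 and 1.76 CPM and the TNF libraries 9.01, 3.82 and 1.77 CPM. TNF replicate 1 was the highest library, at 106 counts against 22 to 78 in the other 5 libraries. In TPM it lay close to TNF replicate 2 (1.07 and 0.997 TPM). The log2 fold change was 0.89 (SE 0.60, adjusted p 0.576 by edgeR) over all libraries and 0.13 (SE 0.56, adjusted p 0.910) without TNF replicate 1. C4a, a near copy of C4b, had 0 to 7 counts per library, and the split of reads between both copies is uncertain. In CPM the highest library was TNF replicate 1 for Cfb and C4b and TNF replicate 2 for C3, whereas in TPM Cfb was highest in TNF replicate 2 (2.29 TPM, beside 2.14 TPM in TNF replicate 1).

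Cfi (ENSMUSG00000058952, chromosome 3, 129629533 to 129668981, plus strand), the serine protease that inactivates C3b and C4b with the help of cofactors, was the complement gene with the highest level among the 7. The PBS libraries measured 82.2, 54.9 and 66.0 CPM and the TNF libraries 63.4, 31.6 and 37.5 CPM. TNF replicates 2 and 3 were the lowest libraries, and TNF replicate 1 lay within the PBS range. The averages of 67.7 ± 13.8 CPM for PBS and 44.2 ± 16.9 CPM for TNF went with a fitted log2 fold change of -0.62 (SE 0.29, edgeR unadjusted p 0.0614, adjusted p 0.429). Without TNF replicate 1, Cfi passed 5% with a log2 fold change of -0.95 (SE 0.22, adjusted p 0.0166). With DESeq2 it did not pass (-0.64, SE 0.32, adjusted p 0.407). Across the alternatives its log2 fold change ran from -0.95 to -0.45, with an adjusted p from 0.0166 to 0.920. Scaled to library totals and gene length instead (TPM, a share of all length-scaled counts), the groups did not overlap, at 26.8 to 32.5 TPM in PBS and 15.3 to 20.6 TPM in TNF. In TMM-scaled CPM they did overlap, and the share of all genes without overlap in TPM was not computed. With library sizes alone the median log2 fold change of all tested genes was -0.11, beside -0.77 for Cfi.

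The summed enterocyte markers were lowest in TNF replicates 2 and 3, as Cfi was, but within each group the order of the libraries differed. The 12 marker genes, among them Sis (sucrase-isomaltase) and Fabp2 (a fatty acid carrier), summed to 343 to 386 CPM after PBS and to 292, 145 and 104 CPM after TNF. None of the 12 was at 0 in all libraries. Without TNF replicate 1, 7 of 12 tested enterocyte genes passed 5% as lower and 0 as higher. Of all genes, 5.4% passed as lower and 9.1% as higher in that fit. Its log2 fold changes were -2.93 for Fabp2 and -2.21 for Sis, but 0.35 (SE 0.75) for Fabp1. Over all 6 libraries only 9 of the 12 were tested. Alpi, Apoa4 and Lct passed the low-count filter only without TNF replicate 1, through their PBS counts. Apoa4 and Lct are among the 7, so the filter favoured their being lower. DESeq2 over all 6 libraries called 4 of the 12 lower. Of all genes with an adjusted p there, 1.71% passed in either direction, and 1.46% did so as higher. The largest sum in TNF was that of TNF replicate 1, which also had the highest Cfi level in TNF. Their part in the Cfi result was not tested.

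Serping1, Cd55 and Cd59a encode the remaining inhibitors. Serping1 (ENSMUSG00000023224, chromosome 2, 84595705 to 84620873, minus strand), the C1 inhibitor that blocks the start of the classical route, had 2, 3 and 0 counts after PBS and 8, 6 and 21 counts after TNF. That is 5 counts against 35 in all, at 0 to 0.200 CPM in PBS and 0.294 to 1.69 CPM in TNF. Every TNF library was above every PBS library, including TNF replicate 1, but the filter on low counts left the gene untested. The closest libraries were TNF replicate 2 at 6 counts and PBS replicate 2 at 3 counts. The shares of genes without overlap given above cover only genes that passed the filter. No such share was computed for counts this low. An exact two-sided permutation test of the CPM values gave p 0.1, the smallest p that 3 against 3 libraries allow. DESeq2, which kept the gene, gave a log2 fold change of 2.91 (adjusted p 0.362).

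Cd55 (ENSMUSG00000026399, chromosome 1, 130366469 to 130390926, minus strand), a membrane-anchored protein that hastens the decay of C3 convertases, measured 6.35, 4.74 and 7.42 CPM after PBS and 8.92, 9.15 and 5.72 CPM after TNF. In CPM TNF replicates 1 and 2 were the highest libraries, and TNF replicate 3 lay below 2 of the PBS libraries. The log2 fold change was 0.36 (SE 0.33, adjusted p 0.681 by edgeR) over all libraries and 0.30 (SE 0.35, adjusted p 0.636) without TNF replicate 1. Its near copy Cd55b had 1 to 18 counts per library. Cd59a (ENSMUSG00000032679, chromosome 2, 103926132 to 103947029, plus strand), which blocks assembly of the membrane attack complex, had 0, 8 and 4 counts after PBS and 9, 0 and 0 after TNF. It was not tested with edgeR, and the exact permutation p of its CPM values was 1. Its copy Cd59b was counted in 2 libraries only, at 5 and 1 counts.

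Levels can be compared between genes only per length, here as TPM over the summed exon length of each gene. The order of the PBS means was Pigr (231 TPM), Cfi (30.2), Cfb (1.72), Cd55 (1.14), C4b (0.475), C3 (0.136), Cd59a (0.0514) and Serping1 (0.0412). The PBS ranges of neighbours in this order were separate down to C3, and overlapped between C3 and Cd59a and between Cd59a and Serping1. Over all 6 libraries, Pigr was above Cfi and Cfi above Cfb in 6 of 6 libraries without any overlap, whereas the ranges of the other neighbours overlapped. Pigr ranked 54 to 104 among the 16408 to 18357 genes with a TPM above 0. C3 left its place in TNF replicates 2 and 3, where its 4.63 and 1.76 TPM were above Cfb (2.29 and 0.974 TPM), Cd55 (2.45 and 0.953 TPM) and C4b (0.997 and 0.288 TPM), while Pigr in the same libraries was at 496 and 256 TPM. The order of Cfb and Cd55 depended on the length used, since the longest transcript in place of all exons gave means over 6 libraries of 1.68 TPM for Cfb and 2.22 TPM for Cd55.

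**Figure D3:**
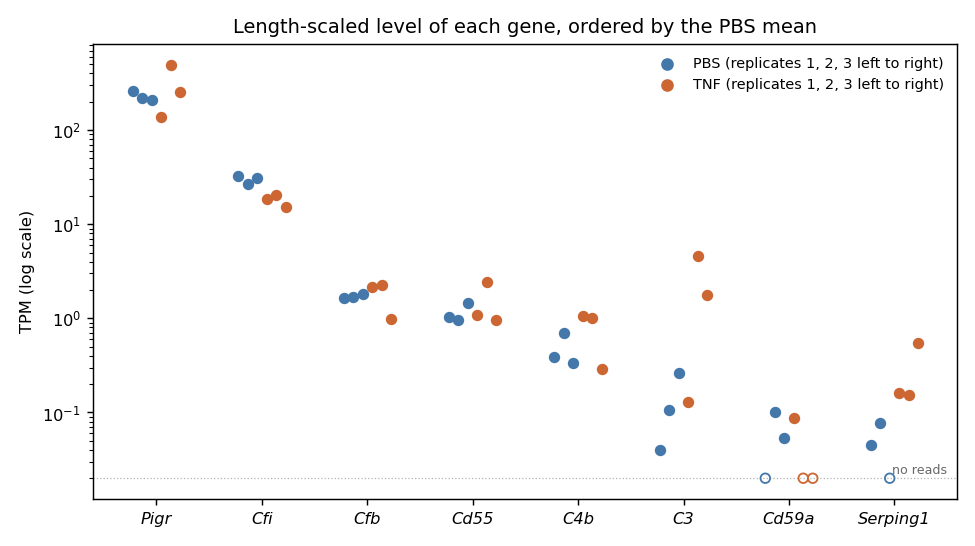
Length-scaled level of each gene in TPM (vertical axis, log scale), ordered by the PBS mean, with PBS libraries in blue and TNF libraries in orange, replicates 1 to 3 from left to right. Open circles on the dotted line mark libraries with no reads. Pigr and Cfi lie above all other genes in all 6 libraries, and C3 spans 0.0400 to 4.63 TPM.

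Other complement genes were taken from 4 lists. Of 18 genes for recognition and classical or lectin activation, 11 were at 0 in all libraries and 2 were tested, C2 and Fcna, of which 0 passed 5% in either fit. C2, the protease partner of C4b, averaged 3.47 ± 2.05 CPM after PBS and 2.12 ± 0.743 CPM after TNF (log2 fold change -0.71, SE 0.57, adjusted p 0.645 by edgeR), and its log2 fold change was -0.89 (SE 0.62, adjusted p 0.385) without TNF replicate 1. Of 9 genes of the alternative and terminal pathway, 4 were at 0 and 1 was tested, Cfp, which encodes properdin, the stabiliser of the alternative convertase. Cfp measured 0 to 0.735 CPM after PBS and 0.340, 4.40 and 2.01 CPM after TNF, with a log2 fold change of 2.26 (SE 1.13, adjusted p 0.450) and of 2.78 (SE 0.96, adjusted p 0.0790) without TNF replicate 1. Of 8 complement receptor genes, 5 were at 0 and 0 could be tested. The genes of the terminal lytic components, Hc and C6 to C9, had at most 13 counts in any library (C8g).

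Among 13 further complement regulators, 5 were tested, and 2 of them passed 5% without TNF replicate 1, in opposite directions. In that fit 14.5% of all genes passed. Cr1l (ENSMUSG00000016481, chromosome 1, 194777603 to 194813894, minus strand) encodes Crry, the broad membrane inhibitor of C3 and C4 cleavage in mice. The PBS libraries measured 43.8, 48.9 and 49.7 CPM and the TNF libraries 62.8, 244 and 265 CPM. On TMM-scaled CPM all 3 TNF libraries were above all PBS libraries, as they were for 9.07% of all tested genes. In TPM the groups overlapped, since TNF replicate 1 (3.62 TPM) lay within the PBS range of 3.37 to 4.64 TPM. The log2 fold change was 2.01 (SE 0.46, adjusted p 0.270 by edgeR) over all libraries, 1.99 with DESeq2 (SE 0.40, adjusted p 4.10e-04) and 2.44 without TNF replicate 1 (SE 0.20, adjusted p 3.22e-05). Across the alternatives its adjusted p ran from 6.80e-09 to 0.897. Cr1l and Cd55 act on the same convertases. Counts of Cr1l were 6.90, 10.3 and 6.70 times those of Cd55 after PBS and 7.04, 26.7 and 46.4 times after TNF. The difference in this log2 ratio was 1.40 (exact two-sided permutation p 0.2, smallest possible 0.1).

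C4bp (ENSMUSG00000026405, chromosome 1, 130562509 to 130589400, minus strand), the plasma cofactor with which Cfi inactivates C4b, measured 140, 103 and 90.8 CPM after PBS and 105, 25.3 and 31.0 CPM after TNF. TNF replicates 2 and 3 were the lowest libraries, as for Cfi. Its log2 fold change was -1.05 (SE 0.49, adjusted p 0.429 by edgeR) over all libraries and -1.96 (SE 0.25, adjusted p 4.58e-04) without TNF replicate 1. With DESeq2 it did not pass (-1.06, SE 0.43, adjusted p 0.228), and across the alternatives it ran from -1.96 to -0.73, with an adjusted p from 4.58e-04 to 0.920. The median log2 fold change of the 5 tested regulators was -0.53 over all libraries, beside 0.00 for all genes. The complement regulators thus held both a gene that was higher (Cr1l) and genes that were lower (Cfi, C4bp) past 5% without TNF replicate 1. Over all 6 libraries none of these genes passed by edgeR, and only Cr1l passed by DESeq2. The enterocyte marker sums given above were also lowest in TNF replicates 2 and 3, and their part in the C4bp result was not tested.

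**Figure D4:**
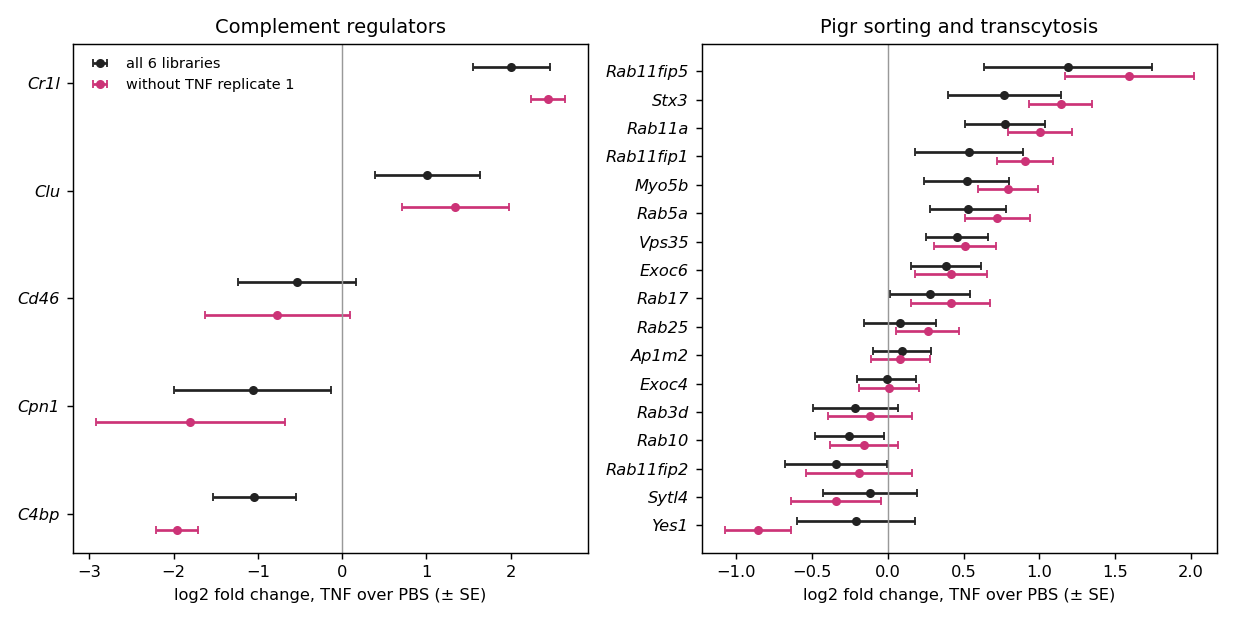
Log2 fold change of TNF over PBS (horizontal axes, ± SE from edgeR) for the 5 tested complement regulators (left) and the 17 tested genes of Pigr sorting and transcytosis (right), over all 6 libraries (black) and without TNF replicate 1 (magenta). Cr1l lies at 2.01 and 2.44 and C4bp at -1.05 and -1.96, and most genes in the right panel lie within 1 log2 unit of 0.

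The route that carries Pigr and IgA through the cell was followed with 18 genes for endosomal sorting, recycling and apical fusion. Of these, 17 were tested, and 0 passed 5% over all 6 libraries by edgeR or DESeq2 (1 at an unadjusted edgeR p under 0.05), with 11 positive and 6 negative log2 fold changes and a median of 0.28. Without TNF replicate 1, 6 of the 17 were higher and 1 was lower past 5%, where 9.1% of all genes passed as higher and 5.4% as lower (median 0.41, beside -0.01 for all genes). Stx3, a syntaxin of apical vesicle fusion, measured 19.8, 18.2 and 24.5 CPM after PBS and 15.6, 41.9 and 48.6 CPM after TNF (log2 fold change 1.14, SE 0.21, adjusted p 0.00412 by edgeR without TNF replicate 1). Rab11a, the small GTPase of recycling endosomes, measured 37.5, 40.6 and 50.9 CPM after PBS and 50.2, 75.7 and 94.6 CPM after TNF (1.00, SE 0.21, adjusted p 0.00868). Its effector Rab11fip1 and the motor gene Myo5b had log2 fold changes of 0.90 (SE 0.19, adjusted p 0.00827) and 0.79 (SE 0.20, adjusted p 0.0212) in the same fit. Yes1, a Src-family kinase, was the 1 gene that was lower (-0.85, SE 0.22, adjusted p 0.0239). Over all 6 libraries these 5 genes had adjusted p-values of 0.317 (Rab11a) to 0.856 (Yes1). Pigr itself did not pass 5% in either fit.

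Markers of cells that supply IgA and complement in the gut were low. Of 14 plasma and B cell genes, 7 were at 0 in all libraries, among them Jchain, which joins IgA into polymers, and Igha had 0 to 7 counts. The summed level of this list was 8.61 to 17.1 CPM after PBS and 3.03 to 5.40 CPM after TNF, of which Derl3, an endoplasmic reticulum gene, took 3.75 to 12.1 CPM and 0.587 to 1.70 CPM. Without TNF replicate 1, 2 of the 3 tested genes of this list passed 5% as lower, Derl3 (log2 fold change -2.62, SE 0.66, adjusted p 0.0218 by edgeR) and Pou2af1, a B cell transcription coactivator (-2.10, SE 0.61, adjusted p 0.0406). Of all genes, 5.4% passed as lower in that fit. Of the C1q genes, typical of macrophages, C1qa had 0 to 10 counts per library, C1qb at most 1 and C1qc 0. Summed levels in PBS and TNF were 17.8 to 22.1 and 16.3 to 30.3 CPM for 10 macrophage and dendritic cell genes (2 at 0), 4.18 to 33.9 and 9.26 to 22.9 CPM for 8 T cell genes (5 at 0), 0.433 to 3.75 and 0.850 to 2.59 CPM for 10 stromal genes (4 at 0), and 2.60 to 11.8 and 2.89 to 8.71 CPM for 8 endothelial genes (4 at 0). Ptprc alone took 3.90 to 33.9 and 8.86 to 22.7 CPM of the T cell sums, whereas Cd3d, Cd3g, Cd8a and Trac were at 0. Lyz2 alone took 16.0 to 19.0 and 13.1 to 27.6 CPM of the macrophage and dendritic cell sums. In these 4 lists 0 genes passed 5% by edgeR over all 6 libraries, by edgeR without TNF replicate 1 or by DESeq2, and 0 had an unadjusted edgeR p under 0.05 over all 6 libraries. Of the 12 PC markers, 2 were higher (Nupr1, Pla2g2a) and 3 lower (Pnliprp2, Clps, Habp2) past 5% without TNF replicate 1. In that fit 9.1% of all genes passed as higher and 5.4% as lower.

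The 8 genes share some positions in the genome. In a stretch of 464 kb on chromosome 1 (130316263 to 130779986, GRCm39) lie Cd55b, Cd55, C4bp and Pigr, among 20 annotated genes of which 7 were tested. In this stretch 0 genes passed 5% over all libraries and 2 did by edgeR without TNF replicate 1, C4bp lower and AA986860 higher (log2 fold change 0.95, adjusted p 0.0200). Of all genes, 14.5% passed in the latter fit. C4b, C4a, Cfb and C2 lie within 170 kb on chromosome 17 (34947354 to 35117241), where 8 of 18 genes were tested and 0 passed 5% by edgeR in either fit. C3 is on the same chromosome, but outside this stretch.

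Promoters were read from GRCm39, from 250 bases before to 50 after the start of each gene's canonical transcript, and searched on both strands for an NF-kB consensus and for the interferon-response motifs GAS (TTCNNNGAA) and ISRE, the interferon-stimulated response element. The NF-kB consensus was in 3 of the 8 windows (Cfb, Cfi and C4b), beside 8.97% of 21770 protein-coding promoters. The GAS motif was in 1 window (Cfb, bases 23 to 31 after the start; 8.81% of all promoters) and the ISRE in 1 (Cd59a; 3.84%). The windows of C3, Pigr, Cd55 and Serping1 held none of these letters. The 4 NF-kB matches are shown because NF-kB is the textbook mediator of TNF signals. The strings read 5′ to 3′ on the strand of the gene, with the match in capitals.
Cfb, match at -159 to -150 from the start (chr17:35081699-35081728, minus strand): gcaaaagctaGGGAATCCCCaggattgtgc
Cfb, match at -66 to -57 from the start (chr17:35081606-35081635, minus strand): gctttcacacGGAATTTCCCagttatgtaa
Cfi, match at -193 to -184 from the start (chr3:129630080-129630109, plus strand): aggtggggggGGGGAATCCCttccatggta
C4b, match at -148 to -139 from the start (chr17:34963041-34963070, minus strand): cacacacaagGGGAAGTCCCtggtactggg
Both Cfb strings lie in an annotated exon of C2, which ends just before Cfb begins. A match describes letters in a window and not a bound site.

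Finally, the genes with the most similar pattern over the 6 libraries were listed for the most abundant gene, Pigr, and for the gene with the largest fold change, C3, among the 9767 genes whose average log2 CPM reached 2. For Pigr these were Scand1, Akt1, Npdc1, Tbl1x and Nsun2 (Pearson r of log2 CPM 0.990 to 0.994). They shared with Pigr a high PBS replicate 1, as in the 116, 65.7 and 62.0 CPM of Akt1 after PBS and its 67.0, 140 and 117 CPM after TNF. For C3 these were Tnfrsf11a, Stard3, Selenoi, Abhd5 and Dctn2 (r 0.993 to 0.999). Tnfrsf11a, which encodes the receptor RANK, measured 18.5, 20.6 and 26.7 CPM after PBS and 25.2, 87.1 and 72.2 CPM after TNF. The values of r rest on 6 libraries that share the groups and the deviating TNF replicate 1, and were picked as the highest of many, so they are a description.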

How the data were processed

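The deposited data were raw counts per Ensembl gene, 1 column per library, with no unused sample column. Per the labels, total RNA was isolated with a Bio-Rad kit and sequenced single-end on an Element AVITI. The submitters' processing notes name FastQC, Trimmomatic 0.39, STAR 2.7.10a, DESeq2 and build mm39. The counting tool, annotation release, strand setting and treatment of shared reads are not stated in these sources. Symbols, GRCm39 positions and exon lengths came from GENCODE (54749 of 55414 identifiers matched). The main test was edgeR 4.0.16 in R 4.3.3: filterByExpr (minimum count 10, minimum total 15), TMM factors, two-sided quasi-likelihood test of group, Benjamini-Hochberg adjustment over all tested genes. CPM are on TMM-scaled library sizes. Each SE was derived from the log2 fold change and its quasi-likelihood F. TPM used summed exon length. Alternatives were other scalings and filters, DESeq2 1.42.0, limma-voom (limma 3.58.1) with and without sample weights, the replicate number as a block, and each library left out. The fits were checked on simulated counts. Limits for counts of 0 (3 counts) cover counting error only.

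The genes named were the 8 genes, their near copies and overlapping neighbours, up to 5 genes of each list past 5% (over all libraries or, if none, without TNF replicate 1) whose average log2 CPM reached 2, and the 5 genes most like Pigr and C3. Cfp, Fcna, Pou2af1, Jchain, Igha, Fabp1, Ptprc, Lyz2, Cd3d, Cd3g, Cd8a, Trac, the C1q genes and the terminal components were named in addition, after their values were seen. So were Alpi, Apoa4 and Lct. The genes and the 12 lists were chosen with earlier results of these data known.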

Additional observations from a re-analysis of the deposited data

How the results depend on the processing

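The count of genes past 5% was 0 over all 6 libraries with edgeR and stayed 0 with RLE factors, library sizes alone, upper-quartile factors, TMM without genes above 1% of counts, a mean CPM of at least 5, limma-voom and the replicate block. It was 690 with no low-count filter, 253 with DESeq2, 1501 with limma-voom and sample weights, and 0 to 1980 when 1 library was left out, the highest without TNF replicate 1. Of the 8 genes, the number past 5% went from 0 to 1 with no filter (C3) or DESeq2 (C3), to 2 with sample weights (C3, Cfi), and was 0 to 2 when 1 library was left out, with 2 (C3, Cfi) only without TNF replicate 1. Over the genes of the 12 lists it went from 0 to 11, 6 and 15 under these settings. Of all genes with an adjusted p, 2.94%, 1.71% and 11.5% passed there. With 1 library left out it was 0 to 23, the highest without TNF replicate 1, where 14.5% of all genes passed. The 23 include Apoa4 and Lct, which were not tested by edgeR over all 6 libraries. The log2 fold change of Cfb turned to -0.28 with sample weights and ranged from -0.34 (without TNF replicate 1) to 0.49 (without TNF replicate 3) when 1 library was left out. C3, Cfi, C4b, Cd55 and Pigr kept their direction under all alternatives that could fit them; C3 and C4b were not fitted at a mean CPM of at least 5. The causes were not tested. The longest transcript in place of all exons gave a mean of 257 TPM for Pigr, beside 264 TPM.

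Same-numbered PBS and TNF libraries did not clearly deviate together (r of deviations from the group means -0.0868 to 0.0612). Y-linked reads were nevertheless found in replicate 3 of both groups (846 counts in PBS and 669 in TNF). With 3 libraries per group, these values cannot decide whether the numbers pair the libraries. With the replicate block, 0 genes passed 5% and the log2 fold changes were 3.51 for C3 (adjusted p 0.376) and -0.66 for Cfi (adjusted p 0.400).

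Depth limited Serping1, Cd59a and C3 in PBS, where libraries held at most 16 counts of each.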
